A study of Bos taurus with 12 samples.

Results

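Histone chaperones were followed through bovine oocyte maturation as 6 genes, NPM2, NASP, ASF1A, ASF1B, DAXX and HIRA, picked by symbol from 16675 genes with expression values. All 6 were present, and their m6A peaks were taken by gene identifier: 8 of 22298 peaks in the list for metaphase II (MII) oocytes, 11 of 14222 in the list for germinal vesicle (GV) oocytes and 2 of 8682 differential peaks. MII oocytes, arrested at metaphase of the second meiotic division, were set against GV oocytes, arrested in prophase of the first division. All oocytes were cultured in vitro. For either stage poly(A) RNA was sequenced in triplicate before (input) and after pull-down with an m6A (N6-methyladenosine) antibody, 12 libraries in all. The labels do not tie libraries to animals or cultures, and p-values thus measure only how far these libraries spread, which may be technical.

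Histone chaperones escort histones between synthesis, storage and chromatin and keep them from binding nucleic acid out of place. In eggs, stored chaperones and histones serve the assembly of chromatin on the incoming sperm genome, in which nucleoplasmins, known from the frog egg, remove sperm basic proteins and bring histones H2A and H2B. NASP binds soluble H3 and H4 and shields them from degradation, and ASF1A and ASF1B hand H3-H4 pairs on to the deposition complexes. HIRA, with its UBN1 and CABIN1 partners, and DAXX, with ATRX, place the replacement histone H3.3.

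The labelled cell type was checked against its markers. All 12 oocyte markers listed were in the tested set, with a summed level of 3047 to 3223 FPKM (fragments per kilobase of transcript, scaled to library size) in MII libraries and 2274 to 2285 FPKM in GV libraries. By the limma test described below 9 of them rose and 1 fell, against 32.0% and 28.8% of all tested genes. Their median log2 change was 0.42, the same direction as NPM2, against 0.013 over all tested genes. Cumulus and granulosa markers, of which 9 of 14 were found by symbol, summed to 29.6 to 32.2 FPKM in MII and 52.0 to 55.8 FPKM in GV. Of the 4 of these that were tested, 3 fell and none rose, against 28.8% and 32.0% of all tested genes. Most of that sum was HAS2, at 20.7 to 22.3 FPKM in MII and 32.7 to 35.4 FPKM in GV, and COL4A1, at 6.31 to 6.65 FPKM in MII and 9.64 to 11.4 FPKM in GV, while VIM averaged 0.43 FPKM in MII and 6.31 FPKM in GV. FSHR was listed at 0 in every MII library and at most 0.14 FPKM in GV, and CYP19A1 was at most 0.55 FPKM in any library. Among 5 blood and immune markers 1 was found, CSF1R, at 27.4 to 29.9 FPKM in MII and 26.4 to 27.6 FPKM in GV. The part of either marker shift in the changes below was not tested. Spearman's correlation across tested genes, which are not independent replicates, was 0.983 between MII libraries, 0.986 to 0.987 between GV libraries and 0.912 to 0.918 across stages. The file gives no read counts, and library depth was not derived here.

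NPM2 had the highest FPKM of the 6 chaperone transcripts, with a mean 2.37 times as high in MII as in GV. NASP was a little lower in MII, and the other 4 genes showed no change that passed the test. By limma with Benjamini-Hochberg adjustment over the 11739 genes that averaged 1 FPKM or more, 1 member was higher and 1 lower at an adjusted p under 0.05. All 6 members were tested. Over all tested genes 60.8% were called (32.0% higher and 28.8% lower), so 2 of 6 was no larger share than the background. Libraries of the stages did not overlap for the same 2 members, against 67.3% of tested genes. These are bulk libraries, in which fewer cells of a type and less RNA per cell cannot be told apart. FPKM from poly(A) RNA is a share of each library, so the amount of a transcript per oocyte was not measured. A change in a transcript's amount and in its recovery as poly(A) RNA cannot be told apart, and tail length was not measured.

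NPM2 (ENSBTAG00000046918, chromosome 8, 69336618 to 69351459, plus strand) encodes nucleoplasmin 2, the oocyte-restricted nucleoplasmin. It had 701, 722 and 576 FPKM in MII libraries 1, 2 and 3, against 291, 259 and 294 FPKM in GV libraries 1, 2 and 3. Every MII library stood above every GV library, and the lowest, MII library 3, was still well clear of the highest GV value. The means were 666 ± 79.0 FPKM in MII and 281 ± 19.3 FPKM in GV (SD, n = 3 each), a ratio of 2.37. On the log2(FPKM + 1) scale NPM2 rose by 1.24 (SE 0.091, 95% interval 1.02 to 1.45; limma adjusted p = 3.1e-05). A change of larger size, in either direction, was found for 8.25% of tested genes. By rank of the stage mean it was 52nd of 16675 genes in MII and 142nd in GV. Without any 1 library the change lay between 1.17 and 1.34 and the call was kept.

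NASP (ENSBTAG00000015346, chromosome 3, 100461046 to 100505190, minus strand) is the carrier of soluble H3 and H4. It had 186, 162 and 170.2 FPKM in MII libraries 1, 2 and 3, against 206, 207 and 199.6 FPKM in GV libraries 1, 2 and 3. The highest MII library was below the lowest GV library, so the stages did not overlap. The means were 173 ± 12.1 FPKM in MII and 204 ± 3.93 FPKM in GV (SD, n = 3 each). NASP fell by 0.24 on the log2 scale (SE 0.054, 95% interval -0.37 to -0.12; limma adjusted p = 0.0055). The call held in each of 15 alternative fits (adjusted p 0.00099 to 0.026). Despite the call the change was small, since 65.7% of tested genes had a larger change in either direction.

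**Figure D1:**
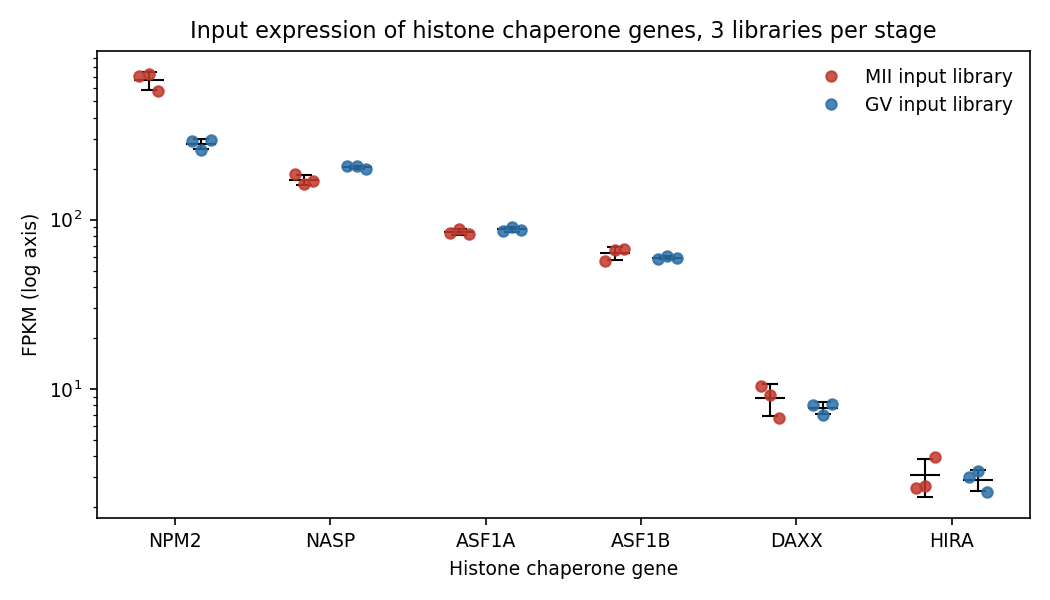
Input expression of the 6 genes in FPKM on a log axis, with a point for each library, MII left of GV, and bars for the mean and SD (n = 3). NPM2 lies between 576 and 722 FPKM in MII, above its GV range of 259 to 294 FPKM, NASP is lower in MII, and the stages overlap for the other genes.

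ASF1A and ASF1B, paralogs that both bind the H3-H4 dimer, were near level. ASF1A (ENSBTAG00000002058, chromosome 9, 32129224 to 32142119, minus strand) had 83.5, 87.9 and 82.2 FPKM in MII libraries 1, 2 and 3, against 85.9, 90.9 and 86.4 FPKM in GV libraries 1, 2 and 3. The stages overlapped, and the log2 change was -0.053 (95% interval -0.16 to 0.052; limma adjusted p = 0.34). It passed only with median scaling, at -0.13 (adjusted p = 0.029; 0.029 to 0.67 over alternatives). ASF1A lies within the span of MCM9, a helicase gene on the opposite strand that averaged 5.82 ± 0.64 FPKM in MII and 3.96 ± 0.72 FPKM in GV (SD, n = 3 each). The library kit keeps the strand, but the sources used here do not say whether counting used it.

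ASF1B (ENSBTAG00000004085, chromosome 7, 11577424 to 11589850, plus strand), the copy linked to proliferation in mammalian cells, had 56.7, 65.8 and 67.2 FPKM in MII libraries 1, 2 and 3, against 58.6, 61.1 and 59.1 FPKM in GV libraries 1, 2 and 3. MII library 1 was the lowest of the 6 libraries and the other two MII libraries the highest. The log2 change was 0.080 (95% interval -0.079 to 0.24; limma adjusted p = 0.34), and without MII library 1 it was 0.16 and passed (adjusted p = 0.023; 0.023 to 0.98 over alternatives). ASF1A stood above ASF1B in every library, with an FPKM ratio of 1.22 to 1.47 in MII and 1.46 to 1.49 in GV. The ASF1A minus ASF1B difference on the log2(FPKM + 1) scale averaged 0.42 ± 0.13 in MII and 0.55 ± 0.014 in GV (SD, n = 3 each). This difference did not separate the stages (exact 2-sided permutation p = 0.3, where 3 against 3 libraries allow no p below 0.1).

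The chaperones that place H3.3 had the lowest transcript levels of the 6. DAXX (ENSBTAG00000016830, chromosome 23, 7487546 to 7491922, minus strand) had 10.4, 9.19 and 6.70 FPKM in MII libraries 1, 2 and 3, against 8.00, 6.98 and 8.15 FPKM in GV libraries 1, 2 and 3. MII libraries 1 and 2 were above every GV library and MII library 3 was below every one. The log2 change was 0.15 (95% interval -0.20 to 0.50; limma adjusted p = 0.42), and it did not pass without MII library 3 either (0.31, adjusted p = 0.055). HIRA (ENSBTAG00000019888, chromosome 17, 72647476 to 72693052, minus strand) had 2.61, 2.66 and 3.98 FPKM in MII libraries 1, 2 and 3, against 3.01, 3.25 and 2.46 FPKM in GV libraries 1, 2 and 3. Here MII library 3 was the highest of the 6 libraries. The log2 change of HIRA was 0.052 (95% interval -0.33 to 0.44; limma adjusted p = 0.80), and its sign turned in 5 of 14 alternatives. In MII the standard deviation was 25.2% of the mean for HIRA and 21.7% for DAXX, the widest of the 6 genes, and the HIRA interval includes a change as large as that of NASP in either direction.

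**Figure D2:**
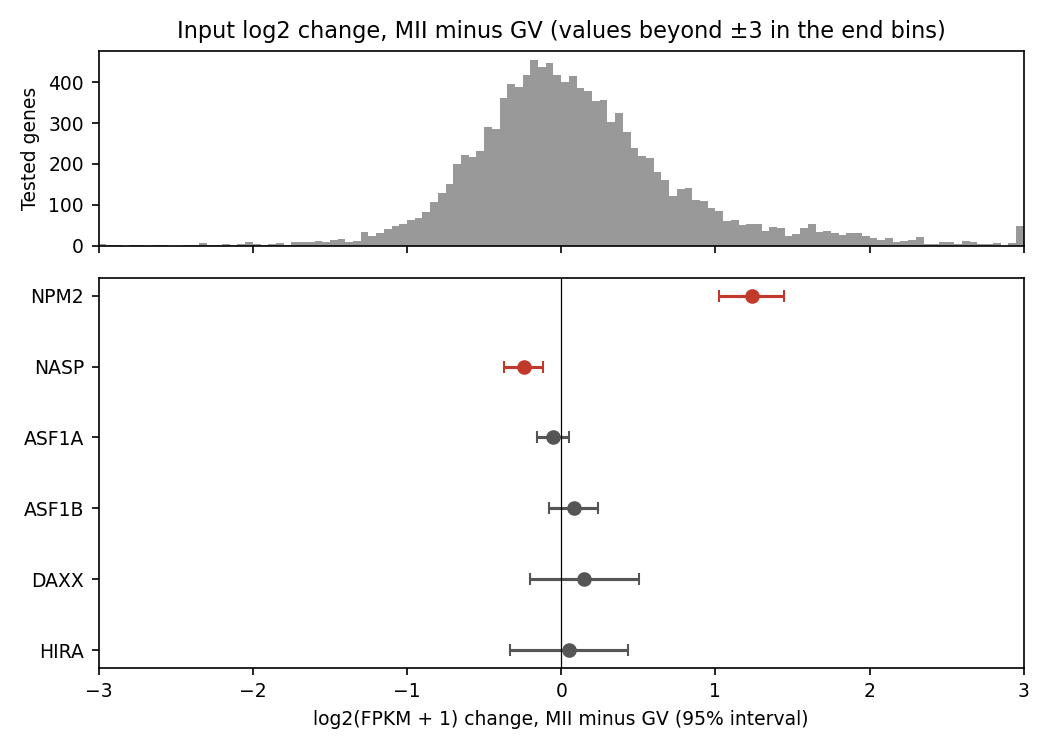
The upper panel is a histogram of the input log2(FPKM + 1) change, MII minus GV, over 11739 tested genes, and the lower panel gives the change of each chaperone gene with its 95% interval. Red points passed an adjusted p of 0.05 (NPM2 at 1.24 and NASP at -0.24), and the intervals of the 4 grey points include 0.

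The order of levels, on the FPKM scale, which is per length, was the same at both stages: NPM2, NASP, ASF1A, ASF1B, DAXX and HIRA from high to low. Neighbours in that order were separated in both stages, since the ranges of their 3 libraries did not overlap. The balance between them shifted towards NPM2. NPM2 made up 63.5% to 68.8% of the summed FPKM of the 6 genes in MII libraries and 41.3% to 45.2% in GV libraries. Its ratio to NASP was 3.38 to 4.46 in MII and 1.25 to 1.47 in GV. The other 5 genes together summed to 327 to 339 FPKM in MII and 356 to 369 FPKM in GV.

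Genes most like each chaperone were sought by the smallest Euclidean distance of log2(FPKM + 1) over the 6 input libraries, a measure of level and pattern at once. The closest to NPM2 were DYNLL1, a dynein light chain gene, at a distance of 0.55, the mitochondrially encoded ND5 at 0.65, and SLBP2 at 0.83. DYNLL1 averaged 579 FPKM in MII and 245 FPKM in GV. Those of NASP were KIF23, a kinesin gene of the spindle midzone, at 0.20, the co-chaperone gene DNAJA2 at 0.21 and the corepressor gene SIN3A at 0.25. CIART, CCNYL1 and MTMR3 lay closest to ASF1A (0.086 to 0.13), and RNF31, NPTX2 and RBM6 closest to ASF1B (0.12 to 0.19). For DAXX they included VPS28 at 0.23 and ZNF596 at 0.31, and for HIRA MTX3, NRG4 and SOGA1 (0.20 to 0.35). None of the genes named here as nearest was on the list of other histone chaperones.

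Each chaperone transcript carried at least 1 m6A peak at one stage. Peaks were listed for 5 of the 6 genes in MII and all 6 in GV, where 73.8% and 54.1% of tested genes had a peak, and 5 of the 6 had peaks at both stages, against 49.1% of tested genes. The enrichments below are the authors' log2 values of immunoprecipitate over input for each peak, from 1 list per stage with no replicates. The median was 1.67 in the MII list and 2.62 in the GV list, so an enrichment is also given by its place in its own list. Of the GV peaks, 5 of 11 overlapped a MII peak of the same gene by at least 1 bp, against 64.0% of all GV peaks. Positions are those of the authors' files, counted from 1, on a genome build that the sources used here do not name. Peak spans include introns.

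DAXX held the most m6A peaks of the 6 genes and the highest enrichment. An exonic peak of 624 bp (chr23:7488818-7489441, minus strand), 2.48 to 3.10 kb from the gene start, was listed with the same bounds at both stages. Its log2 enrichment was 2.40 in MII (adjusted p in the authors' list 1.6e-75) and 7.64 in GV (1e-104), that is 5.27-fold over input in MII and 200-fold in GV. Of the MII list 75.1% of peaks lay below it, and in the GV list it ranked 3rd of 14222. The difference, MII minus GV, was -5.25, while 6158 pairs of peaks that overlapped only each other had a median of -0.67, and 3 of them had a lower difference. In the authors' deposited table of differential peaks the same region had a log2 change of -1.53 (FDR 1.2e-10), lower in MII, a smaller change than the enrichments give. Of the 8682 differential peaks 13.7% had a lower log2 change than that, so by the deposited values the DAXX peak was not among the most extreme. Input DAXX FPKM was 8.77 ± 1.90 in MII and 7.71 ± 0.64 in GV (SD, n = 3 each). Input coverage over the peak itself was not analysed here.

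The start of DAXX was also marked at both stages. In MII a 5' UTR peak covered the first 654 bp of the gene (chr23:7491269-7491922) with a log2 enrichment of 3.15 (adjusted p in the authors' list 0.0017), above 90.8% of MII peaks. In GV a peak over the start codon covered the first 1491 bp (chr23:7490432-7491922) with 3.32 (adjusted p 0.017), and it held the whole of the MII peak. The pair differed by -0.17, MII minus GV. The same enrichment was listed for 279 MII peaks and for 249 GV peaks, so these values are shared by many peaks and place DAXX only coarsely. Another 2 GV peaks, of 150 and 180 bp, followed between 1.73 and 2.12 kb from the gene start without a MII counterpart. Together with the start codon peak they were listed with identical enrichments and p-values, so the 3 do not count as separate measurements. The last GV peak, of 61 bp near the 3' end, had 1.82 and did not pass in the authors' list (adjusted p = 0.11).

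**Figure D3:**
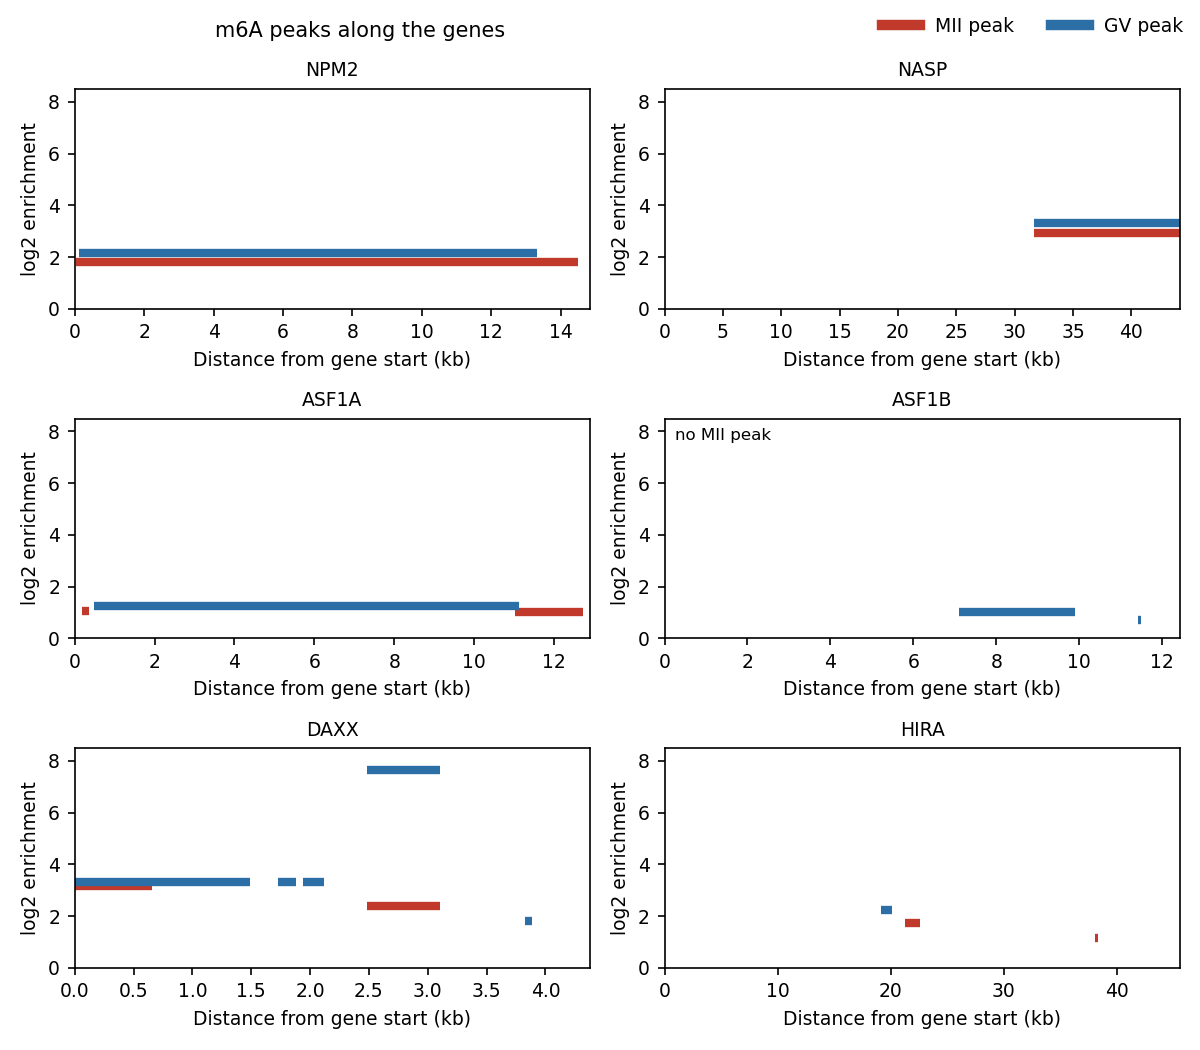
Peaks along each gene as bars, at their distance from the gene start in kb (introns included) and their log2 enrichment over input, MII in red and GV in blue. The DAXX peak 2.48 to 3.10 kb from the start stands at 7.64 in GV and 2.40 in MII, and every other peak lies at or below 3.32.

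NASP and NPM2 each had 1 long peak per stage. The NASP peak ran over the stop codon with the same bounds at both stages (chr3:100461046-100473519, 28.3% of the gene span). Its log2 enrichment was 2.93 in MII and 3.32 in GV, both with an adjusted p listed at 0 by the authors, above 87.7% of MII and 75.5% of GV peaks. The GV value was shared by 249 GV peaks, so it places NASP only coarsely, and the raw difference below rests on it. The raw difference of the NASP peak and its deposited change had opposite signs. The enrichments differed by -0.40, MII minus GV, less negative than the median of all pairs, -0.67, and 58.7% of pairs had a lower difference. The authors' deposited table gave a nearly identical region a log2 change of 0.285 (FDR 7.9e-18), higher in MII. That was short of the change of at least 1 that the authors asked of a significant peak. Such a mismatch was more frequent among deposited increases than decreases. Among 3367 differential peaks that overlapped exactly 1 peak in each list, 1583 were deposited as higher in MII and 1784 as lower. The sign was opposite in 29.8% of the former and 2.24% of the latter. Over the 3367 the median difference of enrichments was -0.83, MII minus GV, so raw differences lean negative. The cause of the mismatch was not tested.

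The NPM2 peak began near the gene start, included the start codon and covered 97.6% of the gene span in MII (chr8:69336647-69351131) and 89.0% in GV (chr8:69336736-69349940). Its log2 enrichment was 1.81 in MII and 2.17 in GV, again with an adjusted p listed at 0 in both. In its own list the NPM2 peak stood above 55.8% of MII peaks and 35.4% of GV peaks. The difference of -0.36 was less negative than the median of all pairs, -0.67. A peak this long does not place the mark within the transcript. NPM2 had no entry in the differential table.

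The ASF1 paralogs carried weakly enriched peaks. ASF1A had an exonic peak toward its 3' end in MII (chr9:32129401-32131108, log2 enrichment 1.01) and a 5' UTR peak of 178 bp (chr9:32141765-32141942, 1.06). In GV it had 1 exonic peak that spanned 82.6% of the gene (chr9:32130990-32141647, 1.27) and met the first MII peak over 119 bp. ASF1B had no peak in MII. In GV an exonic peak (chr7:11584532-11587334) had a log2 enrichment of 1.0 and a 3' UTR peak of 90 bp (chr7:11588834-11588923) had 0.70, below all but 6.87% and 2.52% of GV peaks. All 5 of these peaks had an adjusted p under 0.05 in the authors' lists, the weakest at 0.033. Input ASF1B was near level between the stages, at 63.2 ± 5.74 FPKM in MII and 59.6 ± 1.29 FPKM in GV (SD, n = 3 each).

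HIRA had 2 exonic MII peaks and 1 exonic GV peak, none overlapping across stages. The MII peaks had log2 enrichments of 1.74 (chr17:72670447-72671769, adjusted p = 0.033 in the authors' list) and 1.15 (adjusted p = 0.17), and the GV peak had 2.24 (chr17:72672903-72673862, adjusted p = 0.20). With 1 of the 3 peaks past an adjusted p of 0.05 and a level near 3 FPKM, the HIRA peaks were the least certain of the set. At that threshold 7 of 8 MII peaks and 9 of 11 GV peaks of the 6 genes remained, where 82.6% of all MII and 75.9% of all GV peaks did. A differential peak was listed for 2 of the 6 genes, DAXX and NASP, against 42.5% of tested genes. Both passed an FDR of 0.05 in the authors' deposited table, as did 94.0% of it (63.0% higher and 31.0% lower in MII), and the DAXX peak was marked significant by the authors, as were 72.8%.

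Other histone chaperones and their partners were read from a list of 38 symbols, 36 of which were in the file and all 36 tested. Of these 6 rose and 14 fell by limma (adjusted p under 0.05), with a median log2 change of -0.18 against 0.013 over all tested genes, where 32.0% were higher and 28.8% lower, and 16 did not pass. The share called, 20 of 36, was near the 60.8% of all tested genes. Without mitochondrial genes the counts were 2 higher and 19 lower. Among partners of HIRA and DAXX in H3.3 deposition, 2 of 4 fell. ATRX, the remodeller that works with DAXX, had 36.4, 32.9 and 32.1 FPKM in MII libraries 1, 2 and 3, against 52.5, 50.6 and 51.3 FPKM in GV libraries 1, 2 and 3. The stages did not overlap, and ATRX fell by 0.59 on the log2 scale (limma adjusted p = 0.00010). UBN2 fell by 0.38, while UBN1 and CABIN1 had log2 changes of 0.0054 and -0.23 and did not pass (limma adjusted p of 0.94 and 0.065).

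The replication-coupled complex CAF-1 was mixed. CHAF1A, its large subunit, had 275, 293 and 281 FPKM in MII libraries 1, 2 and 3, against 223, 210.3 and 218 FPKM in GV libraries 1, 2 and 3. It rose by 0.38, RBBP4 fell by 0.24 and CHAF1B had -0.29 and did not pass. In the supply and handling of H3 and H4, 5 of 11 genes fell and 1 rose, against 28.8% and 32.0% of all tested genes. The largest fall was that of MMS22L, a replication fork factor that works with TONSL, by 0.89. TLK2, a kinase that acts on ASF1, fell by 0.65 and the related TLK1 by 0.58. DNAJC9, a heat shock co-chaperone that also binds H3-H4, rose by 0.19.

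Among handlers of H2A and H2B 3 of 14 rose and 3 fell, against 32.0% and 28.8% of all tested genes. Of the nucleoplasmin relatives of NPM2, NPM3 fell by 0.98, to 8.01 ± 1.33 FPKM in MII, against 16.8 ± 2.6 FPKM in GV (SD, n = 3 each), and NPM1, nucleophosmin, had a log2 change of 0.049 at 277 ± 16.8 FPKM in MII and 267 ± 7.15 FPKM in GV (limma adjusted p = 0.43). ANP32A rose by 0.41 and NAP1L4 by 0.37, whereas ANP32E, which removes H2A.Z, fell by 0.31. Among genes that load the centromeric histone CENP-A, OIP5 fell by 0.77 and the CENP-A chaperone HJURP by 0.27, and MIS18A rose by 0.15.

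Histone genes were read from a further list. Of 23 listed symbols, which include older names, 9 were in the file and 8 tested. Of the 8, 2 rose and 4 fell (median log2 change -0.41), where 60.8% of all tested genes were called (32.0% higher and 28.8% lower). H3-3B, a gene for H3.3, had 122, 124 and 125 FPKM in MII libraries 1, 2 and 3, against 232, 231 and 230.1 FPKM in GV libraries 1, 2 and 3. The libraries of each stage lay close together and far from the other stage, and H3-3B fell by 0.89 on the log2 scale (SE 0.032; limma adjusted p = 1.6e-06). H3-3A, which encodes the same protein, rose by 0.22. CENPA fell by 0.62, and the oocyte linker histone gene H1-8 had a log2 change of -0.00078 (limma adjusted p = 0.99) at 132 ± 8.83 FPKM in MII and 133 ± 18.6 FPKM in GV (SD, n = 3 each).

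**Figure D4:**
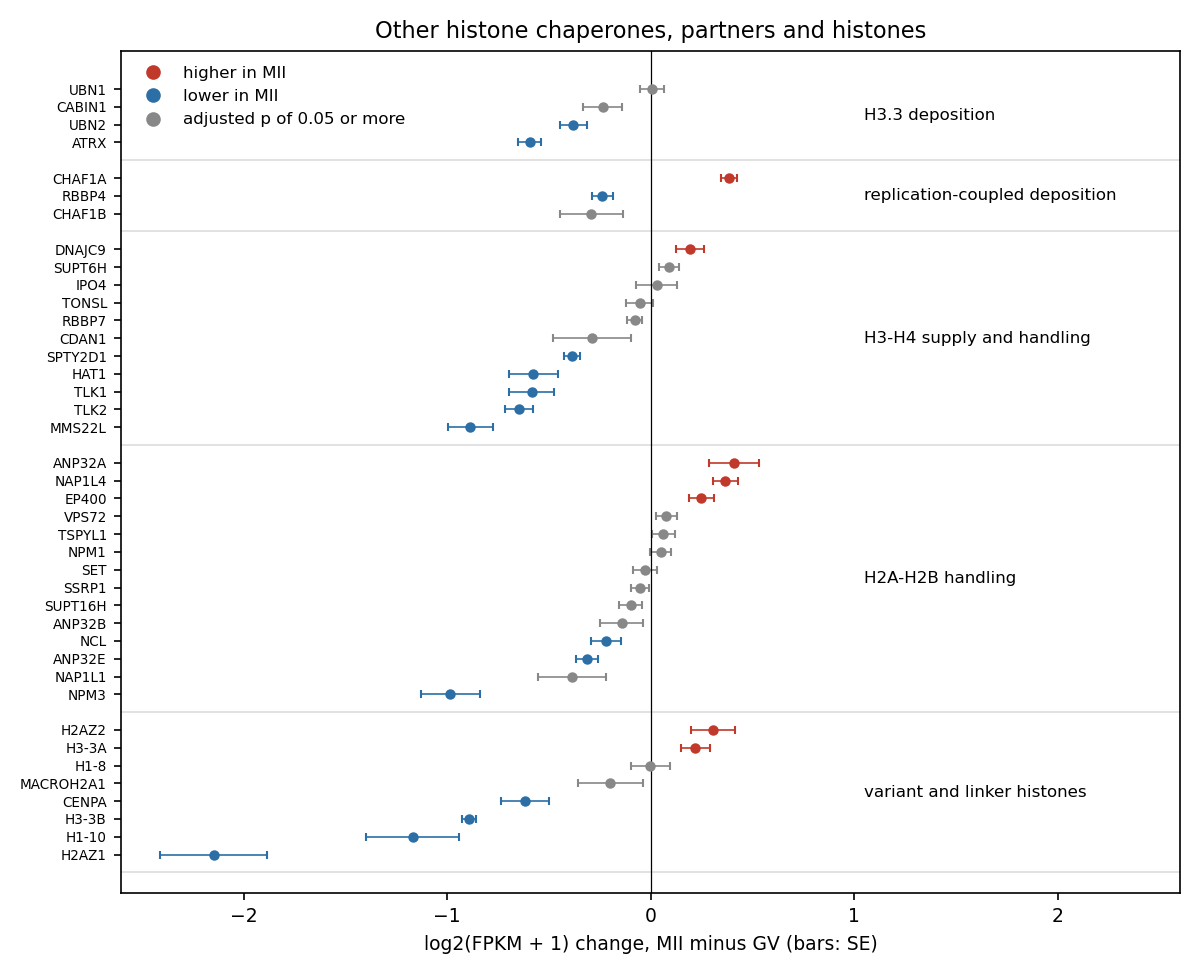
Input log2(FPKM + 1) change, MII minus GV, with its SE for tested genes of 4 other chaperone groups and of the variant and linker histones. Red passed as higher in MII, blue as lower and grey did not pass at an adjusted p of 0.05, with NPM3 at -0.98 and ATRX at -0.59 among the blue points and ANP32A at 0.41 among the red.

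Peaks of the wider group were counted in the same way. Of the 36 genes 33 had a MII peak and 28 a GV peak, against 73.8% and 54.1% of tested genes, with 92 and 74 peaks in all. A differential peak was listed for 27 of the 36 genes in the authors' deposited table, against 42.5% of tested genes. All 59 differential peaks of these genes passed an FDR of 0.05, as did 94.0% of the whole table. Of the 59, 33 were higher and 26 lower in MII, where the whole table had 63.0% higher and 31.0% lower. For deposited increases the sign differed more often from the raw difference of enrichments, which leans negative, as given for NASP. ATRX, the partner of DAXX, had 3 in the authors' deposited table, with log2 changes of -0.458, 1.35 and 1.20, and the HIRA partner UBN1 had 2, with 0.896 and 1.36. H3-3B had a 3' UTR peak with a log2 change of 3.65 (FDR 2.5e-50 in the authors' deposited table). No GV peak was listed for H3-3B, and its input averaged 124 FPKM in MII and 231 FPKM in GV.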

How the data were processed

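The authors deposited FPKM values for each gene in the 6 input libraries. Enrichments are log2 values per peak with p-values and adjusted p-values, and differential peaks carry a log2 change of MII against GV, all used as deposited by the authors. The submitters' processing notes name HOMER 4.10, edgeR 4.1, StringTie 2.1.2, HISAT2 2.0.4 and fastp 0.19.4, without saying what each did. How libraries were combined for peak calling is not stated there. Starts of peaks are 0-based in the files (1672 MII and 861 GV peaks start 1 before their gene's start and 0 at it) and are printed from 1.

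Input values were analysed on log2(FPKM + 1), a scale that understates changes of low genes, with limma 3.58.1 under R 4.3.3 (eBayes with a trend, 2-sided), keeping genes that averaged 1 FPKM or more. The fit was tested on simulated data. The ASF1 difference was tested in SciPy 1.17.1. Named genes were the 6 members, list genes and the 3 nearest genes of each member. The members and lists were chosen with earlier results of these data known. Lists were matched by the symbols in the file, so an older symbol may be missed (45 of 61 chaperone and histone symbols matched). Same-numbered libraries did not deviate together (r of -0.060 to 0.013 across genes), so the numbers were not taken to pair them. Single immunoprecipitated libraries were not analysed here, and some list and nearest genes are not reported here.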

Additional observations from a re-analysis of the deposited data

How the results depend on the processing

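Over 15 alternative fits (other pseudocounts, filters, scalings, variance model, a replicate block and each library left out), NPM2 stayed higher (1.15 to 1.34 on the log2 scale), NASP stayed lower (-0.33 to -0.20), and DAXX did not pass (0.027 to 0.31). With median scaling ASF1A passed at -0.13, so 2 members were lower, and HIRA turned to -0.0034. HIRA was also at -0.091 after quantile normalization, at -0.012 without mitochondrial genes, and between -0.099 and 0.13 when single libraries were left out, and its low level kept it out when genes averaging under 5 FPKM were dropped. ASF1B was at -0.0026 without mitochondrial genes and between 0.035 and 0.16 with single libraries left out, which gave 1 to 2 members higher. Other chaperones called higher were 2 without mitochondrial genes, against 6. The cause of these shifts was not tested.

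The replicate block gave NPM2 an adjusted p of 0.00039 and NASP 0.010, changed no member's call, and left 3612 genes higher and 3201 lower. The ASF1A minus ASF1B difference, -0.13, ranged from -0.20 to -0.068 when a library was left out. Above the median enrichment of each list 5 MII and 5 GV peaks of the members remained, and 3 GV peaks overlapped a MII peak when 50% of both spans had to be shared. Both differential peaks stayed at an FDR under 0.01.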
